A study of Arabidopsis thaliana with 8 samples.

Results

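The core cell cycle genes of Arabidopsis were followed as a group of 49 genes, chosen by a fixed list of loci, among the 25738 genes listed in any library. The list holds 8 B-type, 7 A-type and 10 D-type cyclins, 7 genes of the CDK and CKS families, 7 KRP inhibitors with the kinase gene WEE1, E2FA, E2FB and E2FC with RBR1, and 5 activators of the anaphase promoting complex (APC). All 49 were listed in every library. RNA from stage 9 to 13 buds of the primary inflorescence was sequenced in *elf6*, *jmj13*, *ref6* and Col-0 plants, with 2 libraries per genotype. Col-0 is the wild-type accession, and each mutant carries a T-DNA insertion in Col-0 in the gene of an enzyme that removes methyl groups from histone H3 at lysine 27. The *jmj13* line is GABI_113B06. The *ref6* line is *ref6-1*, in which the catalytic domain stays intact and the zinc-finger domain is disrupted. For *elf6* the sources name different alleles, so the allele is not known. Plants of all genotypes were grown in soil under long days. Whether the libraries of a genotype came from separate plants is not stated, so the p-values below measure only the spread between these libraries.

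Cyclins bind and activate cyclin-dependent kinases (CDKs), and the cyclin present sets which transition of the cell cycle the kinase drives. D-type cyclins with A-type CDKs promote entry from G1 by phosphorylating RBR1, the plant retinoblastoma protein, which otherwise holds E2F transcription factors inactive. A-type and B-type cyclins with A-type and the plant-specific CDKB kinases act in S phase, G2 and mitosis. KRP proteins bind and inhibit cyclin-CDK complexes, WEE1 phosphorylates CDKs, and CKS proteins are their small docking subunits. CDC20 and CCS52 proteins bring mitotic cyclins to the APC for destruction, and CCS52A proteins also promote the switch to the endocycle, in which DNA is copied without division. In flower buds, divisions occur in meristems and young organs and in the lineages that lead to pollen and ovules.

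Mitotic genes of plants often carry the mitosis-specific activator element, with the core AACGG, which MYB3R transcription factors bind. The core was searched on both strands in the 250 bases before the RefSeq gene start, where it cannot overlap its own reverse complement CCGTT. It stood in 20.6% of 27443 protein-coding genes, and 3.62% held 2 or more copies. Of the 49 core cell cycle genes, 18 (36.7%) held it and 12 (24.5%) held 2 or more copies. The B-type cyclins, which drive mitosis, held it most often, with 6 of 8 genes carrying 3 or 4 copies and none found before the remaining pair. Of the KRP and WEE1 (AT1G02970) genes, 5 of 8 held it, with 6 copies before KRP1 (AT2G23430), 3 before KRP7 (AT1G49620) and 2 before KRP2 (AT3G50630). It stood before 1 of 10 D-type cyclins, CYCD3;1, and before none of the 5 APC activators. Some windows run into exons of other genes, among them CYCD3;1, CCS52B and CDC20.1, with 0, 35 and 196 bases free before the start. Both E2F site forms were rare, with TTTCCCGC in 0.619% of all genes and, among the 49, before RBR1 (AT3G12280), and TTTGGCGC in 0.361% of all genes and before CYCD3;3 (AT3G50070). To show how repeated copies are placed, the last 180 bases before the start are printed for the 6 B-type cyclins that hold the core, for KRP1, which has the most copies, and for KRP2, which is described below, with each AACGG or CCGTT in capitals.
CYCB1;1: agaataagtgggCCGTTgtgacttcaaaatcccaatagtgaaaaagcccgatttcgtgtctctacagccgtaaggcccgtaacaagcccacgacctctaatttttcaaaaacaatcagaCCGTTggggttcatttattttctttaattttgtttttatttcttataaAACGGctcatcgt
CYCB1;2: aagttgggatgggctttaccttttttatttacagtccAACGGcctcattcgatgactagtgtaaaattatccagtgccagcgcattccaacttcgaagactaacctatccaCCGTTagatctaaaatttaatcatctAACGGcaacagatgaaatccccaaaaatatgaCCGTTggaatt
CYCB1;3: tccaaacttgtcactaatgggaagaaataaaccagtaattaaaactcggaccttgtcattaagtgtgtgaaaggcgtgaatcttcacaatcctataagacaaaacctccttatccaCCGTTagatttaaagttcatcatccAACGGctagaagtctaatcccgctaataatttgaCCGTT
CYCB2;1: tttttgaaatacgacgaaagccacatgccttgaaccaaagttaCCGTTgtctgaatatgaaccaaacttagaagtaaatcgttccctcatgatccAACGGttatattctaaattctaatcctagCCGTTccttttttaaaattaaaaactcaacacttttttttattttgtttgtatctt
CYCB2;2: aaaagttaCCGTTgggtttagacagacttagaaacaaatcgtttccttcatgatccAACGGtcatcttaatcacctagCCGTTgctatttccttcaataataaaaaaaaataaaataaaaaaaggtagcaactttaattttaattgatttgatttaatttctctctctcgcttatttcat
CYCB2;3: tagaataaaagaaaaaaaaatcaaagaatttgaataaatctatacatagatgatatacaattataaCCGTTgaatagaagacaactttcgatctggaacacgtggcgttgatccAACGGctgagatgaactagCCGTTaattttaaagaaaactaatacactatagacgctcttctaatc
KRP1: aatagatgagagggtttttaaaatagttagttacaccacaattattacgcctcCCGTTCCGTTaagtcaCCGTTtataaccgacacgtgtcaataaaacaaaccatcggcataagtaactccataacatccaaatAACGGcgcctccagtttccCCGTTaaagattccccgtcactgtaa
KRP2: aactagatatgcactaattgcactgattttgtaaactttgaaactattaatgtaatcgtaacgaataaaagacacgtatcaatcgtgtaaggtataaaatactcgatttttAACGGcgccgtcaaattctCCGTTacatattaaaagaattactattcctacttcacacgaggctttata
The sequences are from TAIR10.1 and read 5′ to 3′ toward the gene, and in the order printed they lie at chr4:17624309-17624488 (minus strand), chr5:1861704-1861883 (minus strand), chr3:3627274-3627453 (minus strand), chr2:7663875-7664054 (plus strand), chr4:16901416-16901595 (plus strand), chr1:7137829-7138008 (minus strand), chr2:9978091-9978270 (minus strand) and chr3:18800126-18800305 (plus strand). In the third to the sixth sequence the 3 copies had the same order, the first on the other strand, the second on the strand of the gene and the third on the other strand. A further copy before KRP1 lies upstream of the stretch shown.

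**Figure D1:**
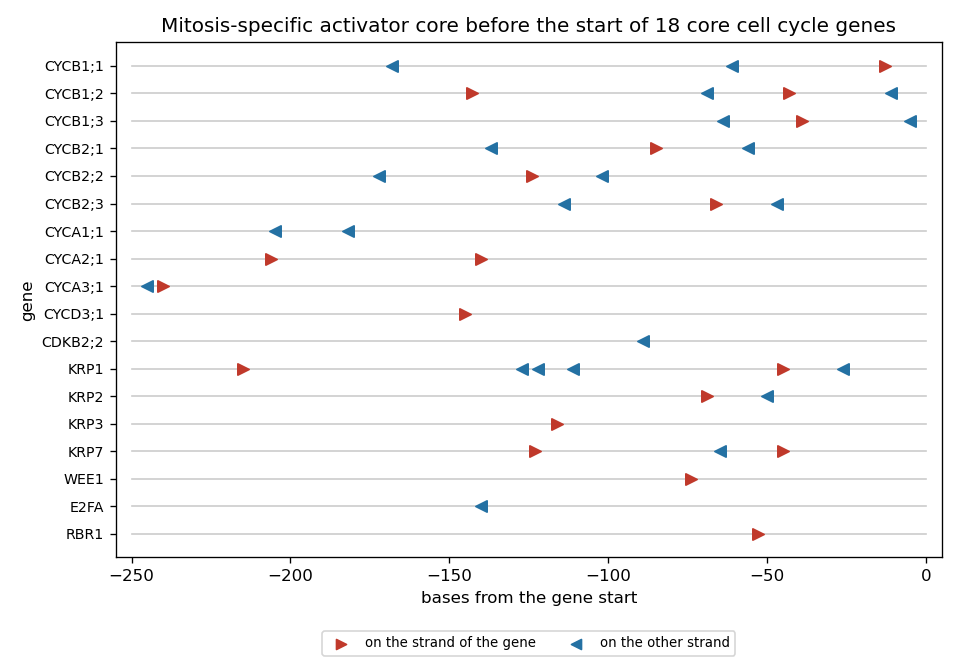
Position of each AACGG in the 250 bases before the start of the 18 genes that hold it, with the distance from the gene start in bases on the x axis and 1 gene per line, right-pointing red triangles for copies on the strand of the gene and left-pointing blue triangles for copies on the other strand. KRP1 has 6 copies and the 6 B-type cyclins 3 or 4 each.

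Totals of expected counts, the authors' estimates of the reads from each gene, were 11373306 to 12048319 per library. Replicate 1 of Col-0 and replicate 1 of *ref6* stood apart from the other 6 libraries. Their 50 most abundant genes took 29.3% and 30.5% of all counts, against 18.4% to 21.4% elsewhere, and their TMM factors, which edgeR uses to make libraries comparable, were 0.739 and 0.742, against 1.012 to 1.218. Scaling by library size alone moved the median of all genes to 0.34 on the log2 scale for *elf6* over Col-0, to 0.48 for *jmj13* over Col-0 and to -0.16 for *elf6* over *jmj13*, and changes below are relative to TMM unless stated. ELF6 counts were 18 and 28 in *elf6*, against 68 and 88 in Col-0. JMJ13 had 45 reads in each *jmj13* library, against 22 and 51 reads in those of Col-0. REF6 had 130 and 119 reads in *ref6* libraries, against 90 and 103 reads in those of Col-0. Whole-gene counts thus check only the *elf6* label. All 5 flower identity markers were present in every library. Of the 5 shoot and floral meristem markers, only CLV3 was at 0 in a library.

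The list as a whole took 0.052% to 0.092% of all transcripts per library. Levels are compared between genes as TPM, transcripts scaled to a fixed library sum of 1000000, which is corrected for gene length. Mean TPM over the 8 libraries was at least 10 for 18 genes, at least 1 for 48, and below 1 for CYCA2;1 (AT5G25380) alone. The constitutive docking subunit CKS2 (AT2G27970) was the most abundant, with 107 and 106 TPM in *elf6*, 130 and 129 in *jmj13*, 112 and 90.9 in *ref6* and 123 and 104 in Col-0. CYCD3;2 (AT5G67260), one of the CYCD3 cyclins that keep cells of shoot organs dividing, followed with 91.3 and 96.5 TPM in *elf6*, 125 and 135 in *jmj13*, 41.5 and 92.6 in *ref6* and 37.3 and 93.0 in Col-0. For this gene the spread between the 2 Col-0 libraries was thus wider than the gap between Col-0 replicate 2 and either *elf6* library. CKS1 (AT2G27960) averaged 55.5 TPM, with 47.9 and 47.5 TPM in *elf6*, 47.9 and 45.1 TPM in *jmj13*, 93.5 and 46.9 TPM in *ref6*, and 66.4 and 48.99 TPM in Col-0, and was highest in *ref6* replicate 1. Next came CDKB2;1 (AT1G76540) with a mean of 48.2 TPM and CDC20.1 (AT4G33270) with 45.1 TPM. CDKA;1 (AT3G48750), the only A-type CDK of the plant, had 28.2 and 41.5 TPM in *elf6*, 31.2 and 37.3 in *jmj13*, 20.13 and 28.62 in *ref6* and 23.3 and 27.0 in Col-0. At the low end, CYCA2;1 had 3 and 7 counts in *elf6*, 13 and 6 in *jmj13*, 1 and 6 in *ref6* and 5 and 1 in Col-0. Of these 8 values 3 are at or under the floor of 3 counts, and the gene failed the filter on low counts and was not tested, which left 48 genes.

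Among the inhibitors, KRP4 (AT2G32710) was the most abundant KRP gene, with 9.84 and 8.56 TPM in *elf6*, 14.9 and 16.1 TPM in *jmj13*, 4.34 and 11.4 TPM in *ref6*, and 5.32 and 11.1 TPM in Col-0. KRP6 (AT3G19150) had 9.16 and 9.69 TPM in *elf6*, 8.07 and 7.61 TPM in *jmj13*, 1.61 and 5.40 TPM in *ref6*, and 3.32 and 4.63 TPM in Col-0, and was the only KRP gene whose 2 highest libraries were both from *elf6*. KRP7 had 1.88 and 3.15 TPM in *elf6*, 7.68 and 5.71 TPM in *jmj13*, 1.98 and 3.93 TPM in *ref6*, and 1.13 and 4.09 TPM in Col-0. KRP5 (AT3G24810) had 4.68 and 4.29 TPM in *elf6*, 8.39 and 5.29 TPM in *jmj13*, 1.59 and 5.23 TPM in *ref6*, and 1.54 and 3.92 TPM in Col-0, with both *ref6* and both Col-0 replicates far apart. KRP1 had 1.64 and 1.66 TPM in *elf6*, 2.53 and 2.45 TPM in *jmj13*, 0.57 and 0.61 TPM in *ref6*, and 0.56 and 1.16 TPM in Col-0. KRP2 had 4.69 and 4.33 TPM in *elf6*, 9.20 and 8.49 TPM in *jmj13*, 4.74 and 7.55 TPM in *ref6*, and 4.33 and 7.45 TPM in Col-0, so that its *elf6* and *jmj13* libraries did not overlap. KRP3 (AT5G48820) had 3.02 and 2.80 TPM in *elf6*, 5.68 and 5.83 TPM in *jmj13*, 1.37 and 2.80 TPM in *ref6*, and 1.1 and 3.27 TPM in Col-0. In all KRP genes except KRP6 the 2 highest libraries were thus both from *jmj13*. In TPM this direction was common: 54.5% of all genes tested had both *jmj13* libraries above both Col-0 libraries. For 37.7% of all genes tested, both *elf6* libraries were below both *jmj13* libraries. The share of all genes with both *jmj13* libraries above all others was not counted. WEE1, the lowest of the inhibitors, had 1.34 and 1.35 TPM in *elf6*, 2.22 and 2.04 TPM in *jmj13*, 0.29 and 0.76 TPM in *ref6*, and 0.42 and 1.06 TPM in Col-0. RBR1 had 13.9 and 13.6 TPM in *elf6*, 16.4 and 15.6 TPM in *jmj13*, 13.7 and 12.8 TPM in *ref6*, and 8.30 and 12.2 TPM in Col-0, and the 2 lowest of its libraries were both from Col-0.

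The E2F genes were expressed at a few TPM. E2FA (AT2G36010) had 3.66 and 4.10 TPM in *elf6*, 5.12 and 4.98 TPM in *jmj13*, 2.12 and 3.75 TPM in *ref6*, and 2.06 and 2.98 TPM in Col-0. E2FB (AT5G22220) had 1.71 and 1.38 TPM in *elf6*, 3.76 and 2.64 TPM in *jmj13*, 1.05 and 2.02 TPM in *ref6*, and 1.64 and 1.75 TPM in Col-0. E2FC (AT1G47870), which acts as a repressor, had 5.01 and 3.51 TPM in *elf6*, 6.03 and 4.11 TPM in *jmj13*, 2.02 and 4.81 TPM in *ref6*, and 1.96 and 2.66 TPM in Col-0. In all 3 the highest library was from *jmj13*. Among the APC activators, CDC20.1 had 52.7 and 57.4 TPM in *elf6*, 58.3 and 63.2 TPM in *jmj13*, 27.2 and 45.2 TPM in *ref6*, and 14.1 and 43.0 TPM in Col-0. CDC20.2 (AT4G33260) had 17.8 and 18.8 TPM in *elf6*, 16.4 and 20.5 TPM in *jmj13*, 8.95 and 13.2 TPM in *ref6*, and 4.04 and 11.4 TPM in Col-0. CCS52B (AT5G13840), a mitotic member of the CCS52 family, had 15.7 and 16.6 TPM in *elf6*, 18.6 and 17.9 TPM in *jmj13*, 4.99 and 12.4 TPM in *ref6*, and 4.15 and 14.1 TPM in Col-0. CCS52A2 (AT4G11920) had 6.32 and 4.75 TPM in *elf6*, 6.27 and 7.34 TPM in *jmj13*, 3.50 and 3.63 TPM in *ref6*, and 2.28 and 4.86 TPM in Col-0, and its lowest library was Col-0 replicate 1. CCS52A1 (AT4G22910) had 2.67 and 2.49 TPM in *elf6*, 4.58 and 2.56 TPM in *jmj13*, 2.15 and 3.84 TPM in *ref6*, and 2.74 and 2.31 TPM in Col-0, with the genotypes overlapping. For CDC20.2 and CCS52B the 2 lowest libraries were replicate 1 of Col-0 and replicate 1 of *ref6*.

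Summed by role, the 20 genes of G2 and mitosis reached 284 and 291 TPM in *elf6*, 340 and 337 in *jmj13*, 178 and 244 in *ref6* and 150.0 and 225 in Col-0. The 10 D-type cyclins summed to 191 and 197 TPM in *elf6*, 265 and 270.1 in *jmj13*, 130 and 189 in *ref6* and 114 and 182 in Col-0. The 10 inhibitors (KRP genes, WEE1, RBR1 and E2FC) summed to 55.2 and 52.9 TPM in *elf6*, 81.1 and 73.2 in *jmj13*, 32.3 and 55.3 in *ref6* and 28 and 51.6 in Col-0. In these 3 sums both *jmj13* libraries were above all others, and replicate 1 of Col-0 and of *ref6* were the lowest. The 3 constitutive genes, CKS1, CKS2 and the A-type CDK, together summed to 183 and 195 TPM in *elf6*, 209 and 211 in *jmj13*, 226 and 166 in *ref6* and 213 and 180 in Col-0, so here the 2 libraries set apart were the highest. Of the 49 genes, 42 had their highest TPM in a *jmj13* library and 40 had their lowest TPM in replicate 1 of Col-0 or *ref6*. After TMM scaling these numbers were 28 and 22 of 48 genes. The same counts over all genes were not made, so these numbers do not show whether the list differs from other genes. In TPM, 54.5% of all genes tested had both *jmj13* libraries above both Col-0 libraries. In bulk buds, fewer dividing cells and less RNA per cell cannot be told apart.

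**Figure D2:**
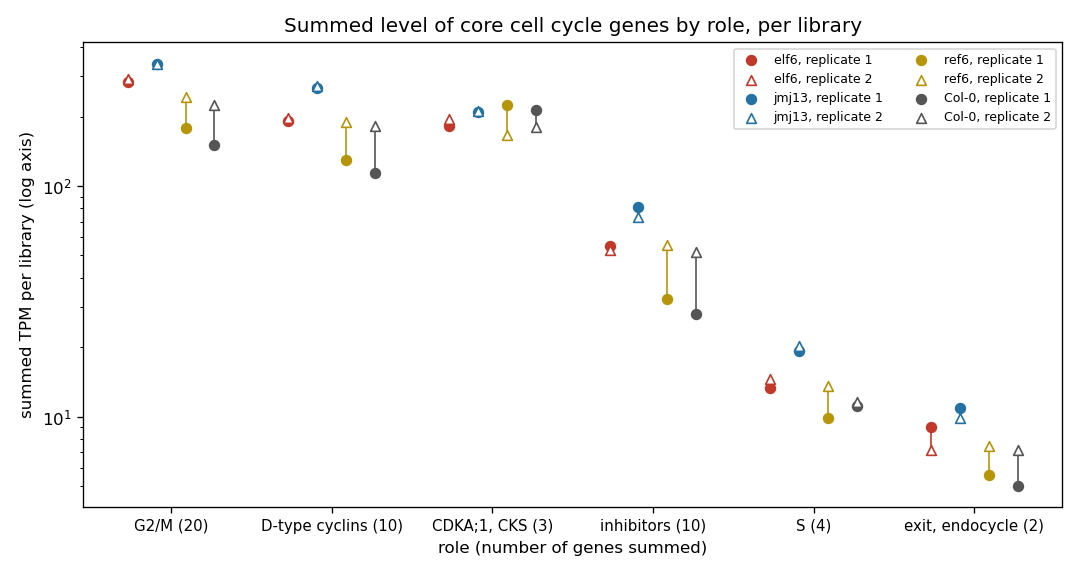
Summed TPM of the genes of each role (log axis) in *elf6*, *jmj13*, *ref6* and Col-0, with filled circles for replicate 1, open triangles for replicate 2 and a line joining the pair. In every group except the constitutive genes both *jmj13* libraries lie above all other libraries.

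Ratios between genes within a library do not depend on how libraries are scaled, and 8 were computed. The G2/M sum over the D-type cyclin sum was 1.48 in both *elf6* libraries, 1.28 and 1.25 in *jmj13*, 1.37 and 1.29 in *ref6* and 1.32 and 1.24 in Col-0, so both *elf6* libraries lay above the other 6. The KRP sum over the A-type CDK gene was 1.24 and 0.832 in *elf6*, 1.81 and 1.38 in *jmj13*, 0.805 and 1.29 in *ref6* and 0.742 and 1.32 in Col-0, with both *jmj13* libraries above all others. CKS1 over CKS2 was 0.449 and 0.446 in *elf6*, 0.369 and 0.351 in *jmj13*, 0.835 and 0.516 in *ref6* and 0.539 and 0.471 in Col-0, with both *jmj13* libraries the lowest. With 2 libraries against 2, an exact permutation test cannot go below p = 0.333, so none was run between genotypes. The statements that set 2 libraries against the other 6 were not tested either. How often a genotype would hold both end places without any difference was not worked out, and several of the 8 ratios share the A-type CDK gene. The D-type cyclin sum over the A-type CDK gene was 6.78 and 4.75 in *elf6*, 8.498 and 7.24 in *jmj13*, 6.45 and 6.62 in *ref6* and 4.88 and 6.72 in Col-0, again with both *jmj13* libraries above all others. The remaining 4 ratios did not set a genotype apart from all others. The G2/M sum over the A-type CDK gene was 10.04 and 7.01 in *elf6*, 10.89 and 9.03 in *jmj13*, 8.86 and 8.53 in *ref6* and 6.44 and 8.32 in Col-0. CCS52A2 over CCS52A1 was 2.37 and 1.90 in *elf6*, 1.37 and 2.87 in *jmj13*, 1.62 and 0.946 in *ref6* and 0.833 and 2.10 in Col-0. CYCD3;3 over CYCD3;1 was 1.101 to 3.19 over the 8 libraries, and CDC20.1 over its tandem neighbour CDC20.2 was 2.96 to 3.77.

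The comparison of *elf6* with Col-0 asks which of these transcripts differ when ELF6 is mutated. No core cell cycle gene was a differentially expressed gene (DEG), which needed an edgeR adjusted p-value under 0.05 and a 2-fold change, where 0.12% of all 19939 genes tested were DEGs. DESeq2 and limma also called 0. By edgeR, 3 of 48 genes were higher at an unadjusted p under 0.05 (5.12% of all genes) and 1 was lower (7.28% of all genes), and the lowest adjusted p-value was 0.251. The median log2 fold change of the 48 was 0.11, beside 0.03 over all genes, with 31 above 0 (52.3% of all genes) and 17 below, and 0 were at least 2-fold higher (4.68% of all genes) or lower (6.65% of all genes). TMM-scaled counts per 1000000 (CPM), compared only within a gene, put both *elf6* libraries above both Col-0 libraries in 18 genes (23.7% of all genes) and below in 6 (21.0% of all genes). In TPM, both *elf6* libraries were above in 27 of 49 genes (40.7% of all genes) and below in 1 (9.4% of all genes).

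CDC20.2, an APC activator of mitosis, had 25.5 and 26.9 scaled CPM in *elf6*, against 9.26 and 17.4 in Col-0. Both *elf6* libraries were above both Col-0 libraries, with a log2 fold change of 0.97 ± 0.307 (SE) and an edgeR adjusted p of 0.251. CYCB2;2 (AT4G35620), a mitotic cyclin, had 6.47 and 4.87 scaled CPM in *elf6*, against 3.55 and 2.59 in Col-0, that is 0.90 ± 0.347 in log2 units and an edgeR adjusted p of 0.339. KRP6, an inhibitor known for its removal in the male germline, had 6.71 and 7.11 scaled CPM in *elf6*, against 3.89 and 3.62 in Col-0, that is 0.88 ± 0.378 in log2 units and an edgeR adjusted p of 0.382. These 3 genes thus differed in the same direction in both libraries, none past the adjusted threshold. KRP2, whose promoter holds 2 copies of AACGG, was the only gene lower at an unadjusted p under 0.05, with 3.71 and 3.44 scaled CPM in *elf6*, against 5.49 and 6.30 in Col-0. The fitted log2 fold change of KRP2 was -0.72 ± 0.299 with an edgeR adjusted p of 0.362. In TPM its groups were not apart, with 4.69 and 4.33 in *elf6*, against 4.33 and 7.45 in Col-0. CKS1 and CYCD7;1 (AT5G02110) had the other low values, at -0.73 and -0.61. CKS1 had 22.11 and 21.97 scaled CPM in *elf6*, against 49.1 and 24.2 in Col-0, so most of its difference lay in Col-0 replicate 1. Without that library CKS1 stood at -0.13.

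By family, all 8 B-type cyclins had a log2 fold change above 0 in *elf6* with TMM, with a median of 0.35, and 7 of 8 were above 0 without Col-0 replicate 1. All 8 were also above 0 under the other scalings. Under the 4 scalings the median of all genes was 0.00 to 0.34, so these signs could hardly turn between them. The 5 APC activators had a median of 0.57, which was 0.10 without Col-0 replicate 1 and 1.28 without Col-0 replicate 2. The 8 KRP and WEE1 genes had a median of 0.27 with 5 above 0, which was -0.08 with 4 above 0 without Col-0 replicate 1 and 0.77 with 7 above 0 without Col-0 replicate 2. The medians of the A-type cyclins (-0.05), the D-type cyclins (-0.06) and the CDK and CKS genes (-0.18) were below 0 with TMM, and above 0 by library size alone, where they still lay 0.06, 0.07 and 0.12 below the median of all genes. Without Col-0 replicate 1 they were 0.27, 0.05 and 0.16. Among the fixed examples, CYCB1;1 (AT4G37490) stood at 0.28, CYCD3;1 (AT4G34160) at 0.25, KRP1 at 0.62, RBR1 at 0.07, CYCA2;3 (AT1G15570) at 0.03 and CDKA;1 at 0.08. CDKB1;1 (AT3G54180) at -0.18 was 0.46 and CCS52A1 at -0.40 was 0.07 without Col-0 replicate 1. The touch and handling markers summed to 1369 and 1537 TPM in *elf6*, against 43.1 to 213 TPM in the other 6 libraries. Late pollen markers summed to 1508 and 774 TPM in *elf6*, against 2270 and 2965 TPM in Col-0, also with no overlap. The part of both lists in these differences was not tested.

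**Figure D3:**
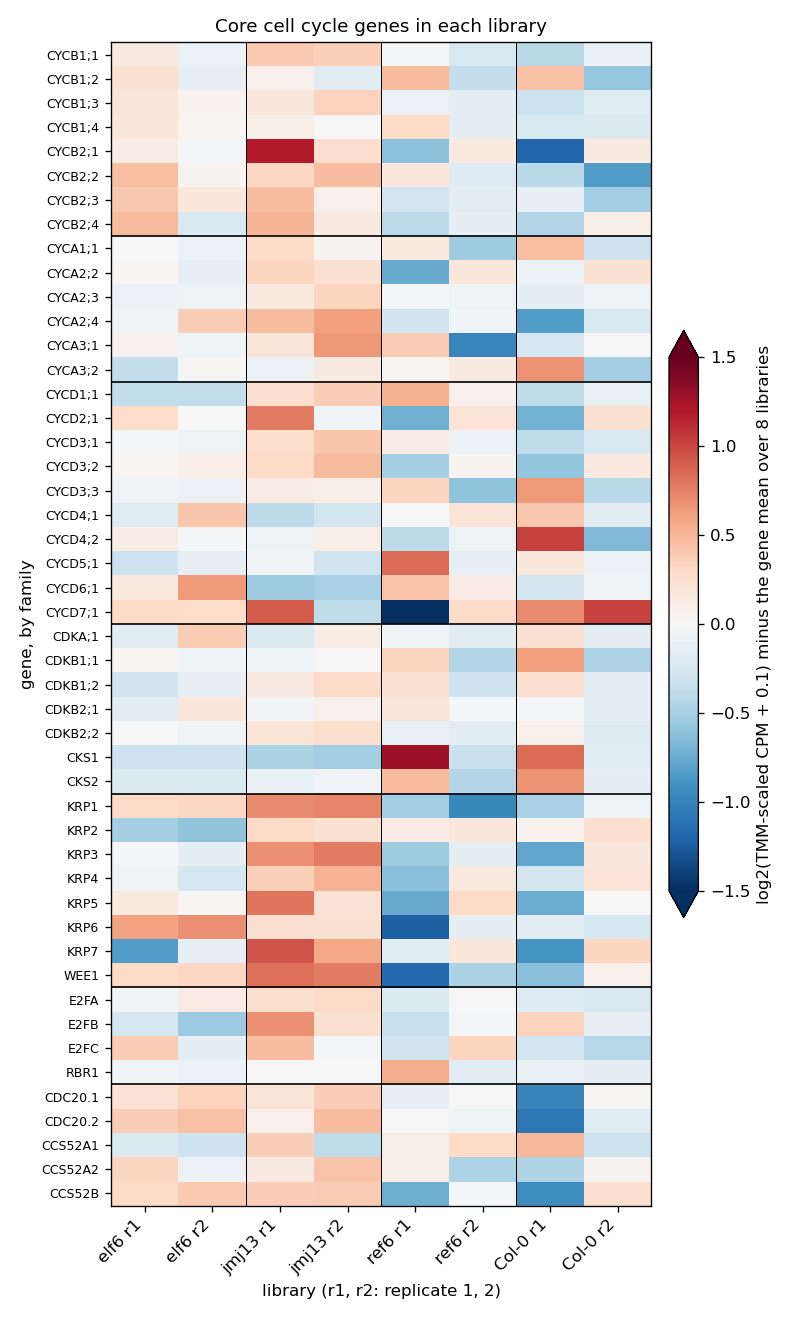
TMM-scaled CPM of the 48 tested core cell cycle genes in each library, as log2(CPM + 0.1) minus the mean of that gene over 8 libraries, red above and blue below, with lines between families and between genotypes. The KRP and WEE1 block is red in both *jmj13* libraries, and replicates 1 and 2 of *ref6* and of Col-0 differ in many rows.

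For *jmj13* against Col-0, no core cell cycle gene was a DEG by edgeR (0.0% of all genes were), and DESeq2 and limma also called 0. By edgeR, 6 of 48 were higher at an unadjusted p under 0.05 (3.59% of all genes) and 0 were lower (7.61% of all genes), with a lowest adjusted p-value of 0.349. The median log2 fold change of the 48 was 0.46, beside 0.04 over all genes, with 35 above 0 (53.4% of all genes) and 13 below. Of the 48, 5 were at least 2-fold higher (3.39% of all genes) and 0 at least 2-fold lower (6.67% of all genes). Both *jmj13* libraries were above both Col-0 libraries in 28 genes (24.7% of all genes) and below in 3 (21.5% of all genes). In TPM, both *jmj13* libraries were above in 42 of the 49 genes, where 54.5% of all tested genes were, and below in 1 (6.47% of all genes). Without Col-0 replicate 1 the median was 0.44 with 43 of 49 genes above 0, and without Col-0 replicate 2 it was 0.39 with 34 of 49. The list lay 0.42 above the median of all genes in the first case and 0.31 in the second. The difference between the median of the list and that of all genes was 0.40 to 0.42 under the 4 scalings. These move all genes by about the same amount, so the difference could hardly change between them.

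The 8 B-type cyclins had a median of 0.56. Of them, 7 were above 0 under TMM or without Col-0 replicate 2, and all 8 by library size alone or without Col-0 replicate 1. CYCA2;4 (AT1G80370), an A-type cyclin of G2 and mitosis, had 12.7 and 14.0 scaled CPM in *jmj13*, against 5.03 and 7.76 in Col-0. The groups did not overlap, and the log2 fold change was 1.05 ± 0.303 with an edgeR adjusted p of 0.349. CYCB2;2 had 5.89 and 6.52 scaled CPM in *jmj13*, against 3.55 and 2.59 in Col-0, that is 1.02 ± 0.345 in log2 units and an edgeR adjusted p of 0.401. CYCB2;1 (AT2G17620), a cyclin of the same group, had 4.59 and 2.35 scaled CPM in *jmj13*, against 0.80 and 2.16 in Col-0. These groups were close to overlapping, and the log2 fold change of 1.19 ± 0.571 had an edgeR adjusted p of 0.461. CYCB1;1, the widely used marker of cells in G2 and mitosis, had 10.33 and 10.08 scaled CPM in *jmj13*, against 5.83 and 7.25 in Col-0, that is 0.64 ± 0.273 in log2 units. CDC20.2 had 20.9 and 27.2 scaled CPM in *jmj13*, against 9.26 and 17.4 in Col-0, that is 0.84 ± 0.307 in log2 units. The edgeR adjusted p-values of this pair were 0.433 and 0.414, so neither passed.

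The D-type cyclins differed among themselves in *jmj13*. CYCD3;1, which links cytokinin to division, had 39.3 and 43.9 scaled CPM in *jmj13*, against 25.16 and 28.04 in Col-0, that is 0.64 ± 0.229 in log2 units with an edgeR adjusted p of 0.414. CYCD3;2 stood at 0.56 and CYCD1;1 (AT1G70210) at 0.55, each with both *jmj13* libraries above Col-0. CYCD4;1 (AT5G65420) and CYCD7;1 both stood at -0.48, among the 3 lowest. The first had 2.66 and 2.88 scaled CPM in *jmj13*, against 4.69 and 3.11 in Col-0, and the second overlapped, with 3.30 and 1.29 in *jmj13*, against 2.86 and 3.54 in Col-0. In TPM, CYCD4;1 had 2.77 and 2.89 in *jmj13*, against 2.71 and 2.69 in Col-0, and so was slightly higher. The median log2 ratio of mean TPM over all genes tested was 0.53. In the 20 alternatives that held CYCD4;1 its log2 fold change kept its direction, from -0.78 to 0.00 after rounding. The D-type median of -0.16 was 0.21 without Col-0 replicate 1 and -0.31 without Col-0 replicate 2. By library size alone it was 0.33, which was still 0.14 below the median of all genes, where with TMM it was 0.20 below.

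The KRP and WEE1 genes had the highest family median with TMM. Another scaling moves all families by about the same amount, so it could hardly alter this rank. All 8 KRP and WEE1 genes had a log2 fold change above 0 in *jmj13* with TMM, with a median of 0.91. They were also above 0 under the other scalings, which moved all genes little or upward and so could hardly turn these signs. With TMM, 7 of 8 had both *jmj13* libraries above both Col-0 libraries (24.7% of all genes). Without Col-0 replicate 1 the median was 0.53 with 7 of 8 above 0, below the 0.56 of the E2F and RBR1 genes, and without Col-0 replicate 2 it was 1.30. KRP3 had 4.59 and 4.93 scaled CPM in *jmj13*, against 1.60 and 3.19 in Col-0, that is 0.97 ± 0.420 in log2 units with an edgeR adjusted p of 0.437. WEE1 had 3.01 and 2.88 scaled CPM in *jmj13*, against 1.03 and 1.73 in Col-0, that is 1.07 ± 0.491 in log2 units with an edgeR adjusted p of 0.450. KRP1, with the most AACGG copies of the list, had 1.72 and 1.74 scaled CPM in *jmj13*, against 0.69 and 0.95 in Col-0, that is 1.06 ± 0.562 in log2 units with an edgeR adjusted p of 0.487. KRP1 rested on 24 and 23 counts in *jmj13*, against 6 and 11 counts in Col-0. KRP2 was near 0 at 0.10, and the remaining KRP genes lay between 0.46 and 0.94.

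The 4 E2F and RBR1 genes were all above 0 in *jmj13*, with a median of 0.43, and RBR1 was the smallest at 0.14, with 43.0 and 42.8 scaled CPM in *jmj13*, against 39.3 and 38.6 in Col-0. CKS1 was the lowest of the 48 at -0.91 ± 0.470, with 19.6 and 19.3 scaled CPM in *jmj13*, against 49.1 and 24.2 in Col-0, and was -0.32 without Col-0 replicate 1. CDKA;1 at -0.09, CDKB1;1 at -0.18 and CCS52A1 at -0.08 were above 0 without Col-0 replicate 1. By library size alone they were 0.38, 0.33 and 0.42, below the all-gene median of 0.48. CYCA2;3, a partner of B-type CDKs that restrains the endocycle, stood at 0.35. The APC activators had a median of 0.59, which was 0.26 without Col-0 replicate 1 and 1.27 without Col-0 replicate 2. The meristem markers summed to 89.4 and 103 TPM in *jmj13*, against 48.2 and 83.7 TPM in Col-0, and these groups did not overlap. Tapetum markers summed to 2040 and 1863 TPM in *jmj13*, against 4046 and 2939 TPM in Col-0, and green tissue markers to 41196 and 41105 TPM in *jmj13*, against 55600 and 48609 TPM in Col-0. For both of these lists the 2 *jmj13* libraries were the lowest of all 8. Late pollen markers summed to 2485 and 1339 TPM in *jmj13*, against 2270 and 2965 TPM in Col-0, and overlapped. Of these lists, all 4 tapetum, 4 green tissue and 7 late pollen genes were listed in every library. Their part in these differences was not tested.

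**Figure D4:**
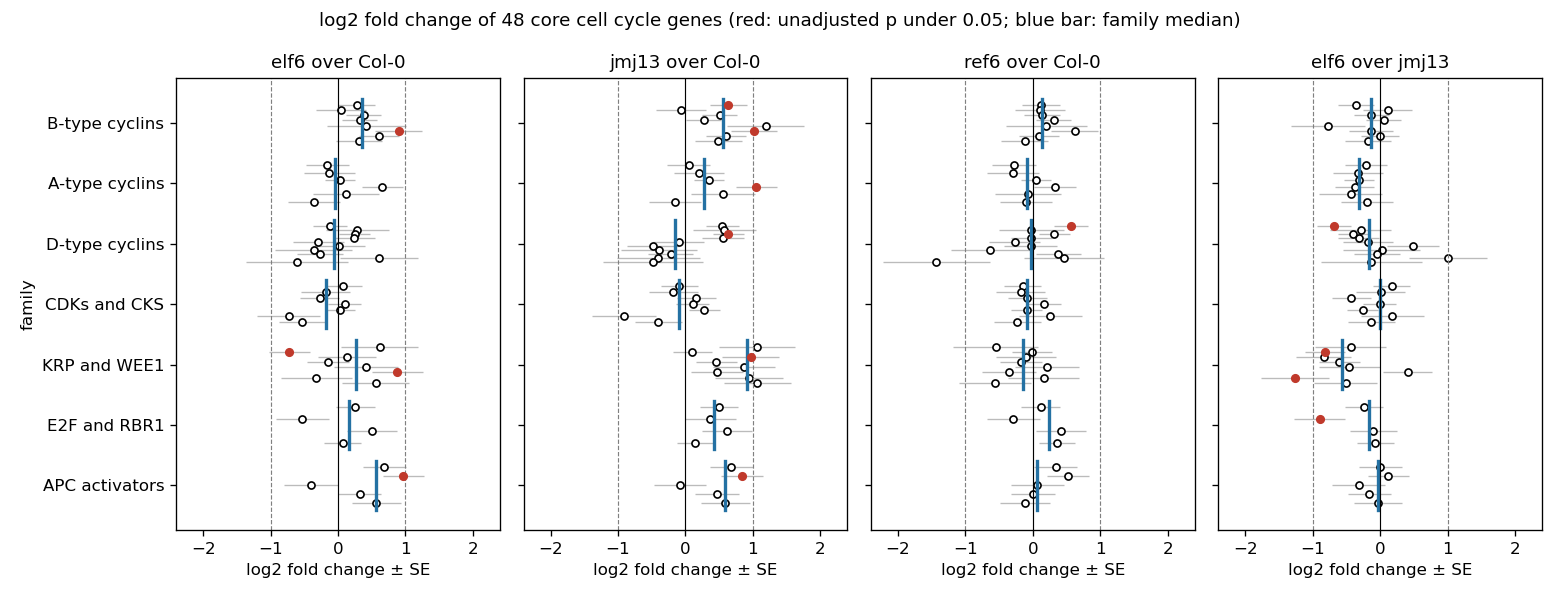
log2 fold change ± SE of 48 core cell cycle genes for *elf6*, *jmj13* and *ref6* over Col-0 and for *elf6* over *jmj13* (x axes), by family (y axis), where red points have an unadjusted p under 0.05 by edgeR, blue bars are family medians and dashed lines mark a 2-fold change. No point passed the adjusted threshold, and in *jmj13* over Col-0 the KRP and WEE1 median of 0.91 is the highest of the families.

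For *ref6* against Col-0, no core cell cycle gene was a DEG by edgeR (0.00502% of all genes were), and DESeq2 and limma called 0. At an unadjusted p under 0.05, 1 of 48 was higher (2.03% of all genes) and 0 were lower (2.64% of all genes), and every adjusted p-value was 0.999. The median log2 fold change was 0.00, beside -0.02 over all genes, with 24 genes above 0 (48.0% of all genes) and 24 below. Both *ref6* libraries were above both Col-0 libraries in 8 genes (13.6% of all genes) and below in 2 (12.5% of all genes). In TPM these were 4 higher (8.87% of all genes) and 1 lower (7.34% of all genes) of 49. None was at least 2-fold higher (2.43% of all genes). CYCD1;1, a D-type cyclin active early in germination, was the gene at an unadjusted p under 0.05, with 68.2 and 49.6 scaled CPM in *ref6*, against 36.1 and 43.5 in Col-0, that is 0.56 ± 0.252 in log2 units. CYCB2;2 stood at 0.62 and CDC20.2 at 0.52, both with the 2 *ref6* libraries above Col-0. CYCD7;1, a cyclin of the stomatal lineage, was the only gene at least 2-fold lower (3.84% of all genes), at -1.43 ± 0.797. It had 0.11 and 2.10 scaled CPM in *ref6*, against 2.86 and 3.54 in Col-0, and the low value rests on 1 count in *ref6* replicate 1, without which the log2 fold change was -0.62. The next lowest values were those of WEE1 at -0.56, KRP1 at -0.55 and CYCD4;2 (AT5G10440) at -0.63, the last of which was 0.48 without Col-0 replicate 1. The KRP and WEE1 genes had a median of -0.14 with 6 of 8 below 0, of -0.34 with all 8 below 0 without Col-0 replicate 1, and of 0.09 with 3 of 8 below 0 without Col-0 replicate 2, so that its direction turned with the Col-0 library used. Of the fixed examples, CYCB1;1 stood at 0.12, CYCA2;3 at 0.05, CYCD3;1 at 0.32 and CDKA;1 at -0.15. RBR1 at 0.36 turned to -0.04 without *ref6* replicate 1, CDKB1;1 at -0.18 turned to 0.46 without Col-0 replicate 1, and CCS52A1 stood at 0.07. Late pollen markers summed to 1436 and 1335 TPM in *ref6*, against 2270 and 2965 TPM in Col-0, and their part was not tested.

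The direct comparison of *elf6* with *jmj13* asks where the 2 mutants differ. Its fold changes set these 4 libraries against each other, while the scaling, the estimate of spread and the p-values come from the fit over all 8 libraries. No core cell cycle gene was a DEG by edgeR, where 0.772% of all genes were, and DESeq2 and limma called 0. At an unadjusted p under 0.05, 4 of 48 were lower in *elf6* (2.79% of all genes) and 0 were higher (5.99% of all genes), with a lowest adjusted p-value of 0.369. The median log2 fold change was -0.19, beside -0.03 over all genes, with 12 above 0 (46.2% of all genes) and 36 below. Both *elf6* libraries were below both *jmj13* libraries in 24 genes (24.6% of all genes) and above in 4 (23.5% of all genes). In TPM they were below in 30 of 49 (37.7% of all genes) and above in 2 (15.4% of all genes). The list lay 0.16 below the median of all genes under each of the 4 scalings. A scaling moves all genes by about the same amount, so this gap could hardly change between them.

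KRP7, which like KRP6 is targeted for removal in the male germline, had 1.18 and 2.00 scaled CPM in *elf6*, against 4.31 and 3.33 in *jmj13*. Its log2 fold change was -1.26 ± 0.507 with an edgeR adjusted p of 0.472, and KRP7 was the only gene at least 2-fold lower (2.83% of all genes). KRP2 had 3.71 and 3.44 scaled CPM in *elf6*, against 6.46 and 6.21 in *jmj13*, a log2 fold change of -0.82 ± 0.295 with an edgeR adjusted p of 0.369. E2FB, an activator of S-phase genes, had 2.76 and 2.24 scaled CPM in *elf6*, against 5.38 and 3.94 in *jmj13*, a log2 fold change of -0.90 ± 0.382 with an edgeR adjusted p of 0.521. CYCD1;1 had 36.6 and 36.5 scaled CPM in *elf6*, against 56.1 and 60.6 in *jmj13*, a log2 fold change of -0.68 ± 0.251 with an edgeR adjusted p of 0.404. In a fit of only these 4 libraries it had an adjusted p of 0.03 at -0.68, which is short of a 2-fold change. KRP3 stood at -0.84, with 2.76 and 2.56 scaled CPM in *elf6*, against 4.59 and 4.93 in *jmj13*.

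The KRP and WEE1 median of -0.56 was the lowest of the families with TMM, a rank that another scaling could hardly alter. Of these 8 genes, 7 were lower in *elf6* than in *jmj13* with no overlap (24.6% of all genes). KRP6 was the exception at 0.41, with 6.71 and 7.11 scaled CPM in *elf6*, against 5.24 and 5.15 in *jmj13*. CYCD6;1 (AT4G03270), known from formative divisions in the root, was the only gene at least 2-fold higher (4.84% of all genes), at 1.01 ± 0.581, with 1.11 and 1.60 scaled CPM in *elf6*, against 0.65 and 0.68 in *jmj13*. The values rest on 14 and 20 counts in *elf6*, against 9 and 9 in *jmj13*. CYCD4;1 stood at 0.49. All 6 tested A-type cyclins were below 0, with a median of -0.32 and CYCA2;3 at -0.32, whereas the B-type median was -0.13 and CYCB1;1 stood at -0.36. CYCD3;1 stood at -0.40, KRP1 at -0.44, CCS52A1 at -0.32, CDKA;1 at 0.17, RBR1 at -0.07 and CDKB1;1 at 0.01, the last of which was -0.11 by library size alone, where the median of all genes was -0.16. Touch and handling markers (values above), tapetum markers (2653 and 3518 TPM in *elf6*, against 2040 and 1863 TPM in *jmj13*) and green tissue markers (49229 and 44300 TPM in *elf6*, against 41196 and 41105 TPM in *jmj13*) were higher in both *elf6* libraries. Meristem markers were lower, with 64.6 and 78.3 TPM in *elf6*, against 89.4 and 103 TPM in *jmj13*. The part of these lists was not tested.

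**Figure D5:**
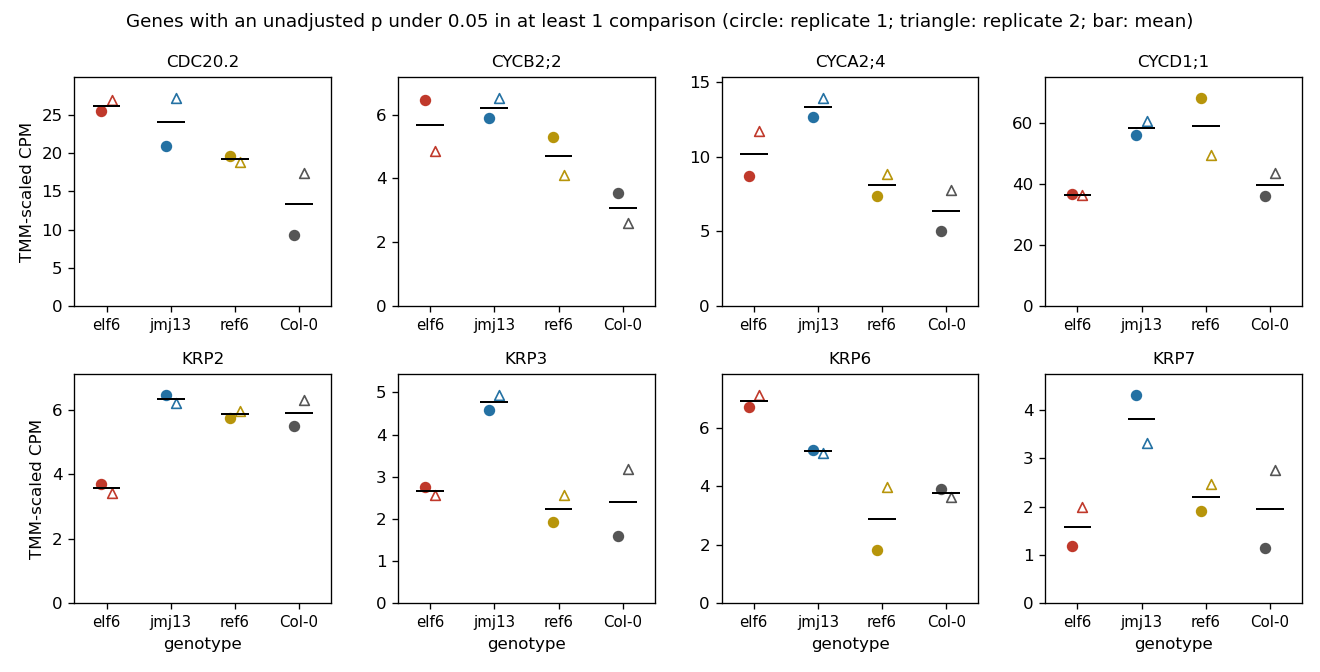
TMM-scaled CPM (y axes from 0) of 8 genes with an unadjusted p under 0.05 in at least 1 comparison, in *elf6*, *jmj13*, *ref6* and Col-0, with circles for replicate 1, triangles for replicate 2 and bars for the mean. The genes are a selection: CYCB1;1, CYCD3;1 and E2FB also had such a p-value by edgeR and are not shown. On this scale KRP2 is lowest in *elf6*, with 3.71 and 3.44, and CDC20.2 is highest in *elf6* and *jmj13* with both Col-0 libraries below them.

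A single test of any difference among the 4 genotypes called none of the 48 at an adjusted p under 0.05, where 0.567% of all genes passed, by edgeR. At an unadjusted p under 0.05 it held 5 genes, 10.4% of the list beside 12.0% of all genes. These were CYCA2;4, CYCD1;1, KRP6, WEE1 and CDC20.2, with edgeR adjusted p-values of 0.358, 0.382, 0.387, 0.395 and 0.408. The 11 tested genes with 2 or more AACGG copies had a median log2 fold change of 0.28 in *elf6* and 0.60 in *jmj13* over Col-0. The 6 genes with 1 copy had medians of 0.19 and 0.57, and the 31 genes with none 0.03 and 0.27. In the same order, these medians were 0.10, 0.01 and -0.02 in *ref6* over Col-0, and -0.36, -0.33 and -0.13 in *elf6* over *jmj13*. The genes with 2 or more copies include 6 B-type cyclins and 3 KRP genes, so copy number and family cannot be told apart. Over the 48 genes, the SD of the log2 ratio between replicates was 0.28 for *elf6* and 0.35 for *jmj13*, and 0.76 for *ref6* and 0.70 for Col-0. The number of genes that differed at least 2-fold between replicates was 0 for *elf6*, 1 for *jmj13*, 5 for *ref6* and 10 for Col-0. The median standard error of a log2 fold change over the 48 was 0.344 to 0.352 in the 4 comparisons.

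Genes that work with the list were followed as 4 fixed groups, and none of them held a DEG in any of the 4 comparisons by edgeR. The 22 genes of replication licensing and S phase had median log2 fold changes of 0.22 in *elf6*, 0.39 in *jmj13* and 0.06 in *ref6* over Col-0, and -0.18 in *elf6* over *jmj13*. At an unadjusted p under 0.05, 2 of 22 were higher in *elf6* (5.12% of all genes) and 6 of 22 in *jmj13* (3.59% of all genes) over Col-0. CDT1B, which loads the replicative helicase, had 6.03 and 3.56 scaled CPM in *jmj13*, against 1.83 and 1.55 in Col-0, that is 1.51 ± 0.418 in log2 units with an edgeR adjusted p of 0.329. ORC5, of the origin recognition complex, had 7.54 and 7.20 scaled CPM in *jmj13*, against 2.97 and 3.36 in Col-0, at 1.21 ± 0.357 with an edgeR adjusted p of 0.353. ORC1B and ORC1A were the lowest of this group in *jmj13*, at -0.38 and -0.29, and both overlapped with Col-0. The 13 genes of mitosis and cytokinesis had medians of 0.40 in *elf6*, 0.51 in *jmj13* and 0.21 in *ref6* over Col-0, and -0.09 in *elf6* over *jmj13*. In *jmj13*, 3 of the 13 were higher than in Col-0 at an unadjusted p under 0.05 (3.59% of all genes). These were HINKEL, a kinesin of the cell plate, at 0.70, the spindle factor TPX2 at 0.66 and the phragmoplast protein MAP65-3 at 0.65, with edgeR adjusted p-values of 0.422, 0.426 and 0.421.

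In *elf6*, the highest of the replication genes were CDT1B and ORC5. CDT1B had 3.24 and 3.83 scaled CPM in *elf6*, against 1.83 and 1.55 in Col-0, that is 1.07 ± 0.423 in log2 units with an edgeR adjusted p of 0.345. ORC5 had 4.90 and 6.63 scaled CPM in *elf6*, against 2.97 and 3.36 in Col-0, that is 0.86 ± 0.360 with an edgeR adjusted p of 0.371. RNR1, the large subunit of ribonucleotide reductase, had 49.5 and 49.3 scaled CPM in *jmj13*, against 27.8 and 32.4 in Col-0, that is 0.71 ± 0.235 with an edgeR adjusted p of 0.390. MCM6, MCM7 and ORC2, parts of the licensing machinery, stood at 0.74, 0.58 and 0.74 in *jmj13*, each with both libraries above Col-0 and edgeR adjusted p-values of 0.439, 0.442 and 0.444. In *elf6* over *jmj13*, MCM6 stood at -0.69, MCM5 at -0.58 and TES, a kinesin of cytokinesis in pollen mother cells, at -0.71, none past the adjusted threshold, with edgeR adjusted p-values of 0.597, 0.562 and 0.523. In *ref6*, TPX2 had 13.3 and 10.6 scaled CPM, against 7.89 and 7.16 in Col-0, that is 0.67 ± 0.271 with an edgeR adjusted p of 0.999.

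The 14 regulators of cell cycle transcription and CDK activation had medians of 0.14 in *elf6*, 0.34 in *jmj13* and 0.08 in *ref6* over Col-0, and -0.21 in *elf6* over *jmj13*. DEL1, an atypical E2F that represses the endocycle, was the highest in *jmj13* by the rule, with 4.45 and 4.32 scaled CPM, against 1.60 and 2.85 in Col-0, at 0.96 ± 0.406 with an edgeR adjusted p of 0.433. The 11 APC subunits had medians of 0.29 in *elf6*, 0.45 in *jmj13* and 0.05 in *ref6* over Col-0, and -0.14 in *elf6* over *jmj13*. APC7 was the highest in all 3 mutants over Col-0. Scaled CPM of APC7 were 4.97 and 4.87 in *elf6*, then 7.54 and 5.84 in *jmj13*, then 4.41 and 5.20 in *ref6*, all above the 3.09 and 2.33 in Col-0, with log2 fold changes of 0.87, 1.31 and 0.84. The 3 mutants were set against the same 2 Col-0 libraries, so these values share their reference. The edgeR adjusted p-values of APC7 were 0.343, 0.305 and 0.999. APC8 had 6.03 and 7.35 scaled CPM in *jmj13*, against 3.09 and 4.40 in Col-0, that is 0.83 ± 0.328 with an edgeR adjusted p of 0.425. HBT, the CDC27 subunit HOBBIT, had 20.4 and 13.6 scaled CPM in *jmj13*, against 11.3 and 10.6 in Col-0, that is 0.63 ± 0.274 with an edgeR adjusted p of 0.433. In *ref6* it had 16.3 and 17.4 scaled CPM, that is 0.62 ± 0.276 over the same Col-0 libraries. MYB3R4, an activator that binds AACGG, had 13.1 and 10.3 scaled CPM in *ref6*, against 6.75 and 8.97 in Col-0, that is 0.56 ± 0.289 with an edgeR adjusted p of 0.999.

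Some values depend on how reads of similar genes were shared out. CDC20.1 and CDC20.2 lie side by side on chromosome 4 and are 97.0% identical over 1366 bases, and CYCB1;2 (AT5G06150) and CYCB2;3 (AT1G20610) each have a locus that is 97.7% and 97.3% identical over 390 and 583 bases. Their expected counts were not whole in at least some libraries, so the split between copies is an estimate. CDKB2;1 and CDKB2;2 (AT1G20930) are 86.9% identical, and CYCA2;3 and CYCA2;4 are 84.4% identical over the aligned stretch. Several genes overlap a gene on the other strand, among them CYCD1;1, CYCD6;1, RBR1, E2FA and CCS52B, and reads of such partners cannot be told apart where strand was not used in counting, which the sources do not state.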

How the data were processed

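RNA from buds of *elf6*, *jmj13*, *ref6* and Col-0 was sequenced by the authors, with 2 libraries each, grouped by the sample labels. Single-end reads were aligned to TAIR10 with Bowtie2, and RSEM is named in the submitters' processing notes; versions and the gene annotation are not given in the sources used here. For each gene the authors deposited 2 values, an expected count and FPKM, which is scaled for gene length and library total. Genes at 0 are not listed and were taken as 0. Library totals ranged from 11373306 to 12048319.

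FPKM was rescaled to a sum of 1000000 per library to give TPM. Expected counts were rounded, filtered with filterByExpr (19939 genes), scaled by TMM and fitted over all 8 libraries with edgeR 4.0.16 in R 4.3.3 (quasi-likelihood test, Benjamini-Hochberg adjustment over all genes tested). The method was also run on simulated counts with 200 changed genes. How often it would miss a 2-fold change in these libraries is not given here. NOISeq, which the study used, was not run. Alternatives were DESeq2 1.42.0, limma 3.58.1 on log2(FPKM + 1) or log2(FPKM + 0.1), other scalings and filters, a fit of 4 libraries, the replicate number as a block, and each library left out. Promoter windows and gene models were read from the RefSeq annotation of TAIR10.1, in which all 49 genes matched by locus. Proteins were not analysed here.

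Fold changes were printed for genes with an unadjusted p under 0.05, for the 3 largest increases and 3 largest decreases in each comparison with a mean of at least 1 TPM, and for CYCB1;1, CYCA2;3, CYCD3;1, CDKA;1, CDKB1;1, KRP1, RBR1 and CCS52A1. CYCD3;2 and CYCD1;1 in *jmj13*, and the ranges of the other KRP genes, were added after their values were seen. For the 4 companion lists the rule used 2 each way, and HINKEL, TPX2 and MAP65-3 stand for the unadjusted p. The members and the lists were chosen with earlier results of these data known.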

Additional observations from a re-analysis of the deposited data

How the results depend on the processing

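No core cell cycle gene was called in any comparison under any of the 21 alternatives, which covered scaling, tool, filter, fold criterion, libraries used and each library left out. At an adjusted p under 0.05 with no fold criterion, CYCD1;1 in *elf6* against *jmj13* passed in a fit of only the 4 libraries (-0.68, edgeR adjusted p = 0.03) and without both Col-0 replicate 1 and *ref6* replicate 1 (-0.65, edgeR adjusted p = 0.0358). Counts over all genes moved more: DESeq2 called 437, 264, 33 and 434 genes for *elf6*, *jmj13* and *ref6* over Col-0 and *elf6* over *jmj13*, against 24, 0, 1 and 154 by edgeR. The cause was not tested.

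The median log2 fold change of the core cell cycle genes over Col-0 was 0.42 in *elf6* and 0.87 in *jmj13* by library size alone, 0.39 and 0.74 by limma on log2(FPKM + 1), 0.46 and 0.93 on log2(FPKM + 0.1), and 0.39 and 0.75 with a mean FPKM of at least 1. For *elf6* over *jmj13* these were -0.31, -0.29, -0.33 and -0.29. In these 4 settings all genes had medians of 0.34, 0.19, 0.33 and 0.30 for *elf6* over Col-0. For *jmj13* over Col-0 the medians of all genes were 0.48, 0.28, 0.46 and 0.42, and for *elf6* over *jmj13* -0.16, -0.09, -0.14 and -0.13. Leaving out libraries gave 0.10 to 0.23 for *elf6*, 0.33 to 0.47 for *jmj13*, -0.02 to 0.09 for *ref6* and -0.27 to -0.16 for *elf6* over *jmj13*.

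Of 1262 recomputed values of named genes, 56 changed sign, in 18 of 61 pairs of gene and comparison. Of these, 34 came with a library left out, 2 by upper quartile or the 50-read minimum, and 20 by library size or limma on FPKM, which move all genes together. By library size alone, and by limma with pseudocount 1, pseudocount 0.1 and the FPKM minimum, CDKB1;1 was 0.22, 0.23, 0.25 and 0.23 in *elf6* and 0.33, 0.34, 0.37 and 0.34 in *jmj13* over Col-0. CDKA;1 was 0.38, 0.36, 0.37 and 0.36, and CCS52A1 0.42, 0.28, 0.36 and 0.28, in *jmj13* over Col-0. CDKB1;1 in *elf6* over *jmj13* was -0.11, -0.11, -0.12 and -0.11, -0.05 by upper quartile and -0.01 under the 50-read minimum mean. With libraries left out, *elf6* over Col-0 ranged from -0.01 to 0.06 for CYCA2;3, -0.23 to 0.33 for CDKA;1, -0.63 to 0.47 for CDKB1;1 and -0.77 to 0.07 for CCS52A1. With libraries left out, *jmj13* over Col-0 ranged from -1.31 to 0.04 for CYCD7;1, -0.28 to 0.10 for CDKA;1, -0.65 to 0.44 for CDKB1;1 and -0.52 to 0.37 for CCS52A1. With libraries left out, *ref6* over Col-0 ranged from -1.29 to 0.61 for CYCD4;2, -0.14 to 0.28 for CYCB1;1, -0.02 to 0.09 for CYCA2;3, -0.33 to 0.05 for CDKA;1, -0.64 to 0.46 for CDKB1;1, -0.04 to 0.68 for RBR1 and -0.30 to 0.63 for CCS52A1. With libraries left out, *elf6* over *jmj13* ranged from -0.14 to 0.42 for CDKA;1, -0.02 to 0.04 for CDKB1;1 and -0.65 to 0.13 for CCS52A1.

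Replicate numbers do not pair the samples by any label, and deviations of same-numbered libraries correlated at 0.268 for *elf6* and *jmj13*, 0.364 for *ref6* and Col-0 and 0.015 to 0.088 otherwise. With the replicate block, 0 core cell cycle genes were called, their medians were 0.11, 0.47, -0.01 and -0.19, and all-gene calls were 290, 0, 2 and 287. With 2 libraries per genotype, the median SE of a log2 fold change over the list was 0.344 to 0.352.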
